A study of Mus musculus with 12 samples.

Results

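Counts of 9 cytokine genes that T cells transcribe once activated are described here in mouse dendritic cells (DCs) sorted after culture with T cells. The genes are Il21, Lta, Csf2, Ifng, Il2, Il3, Il4, Il13 and Il17a. They were found by matching their Ensembl identifiers to gene symbols, which gave 9 of the 57009 identifiers in the count table, and raw counts were set beside those of Cd3e, a chain of the T cell receptor complex, in the same library. Of the 9 genes, 8 had a count in at least 1 library, 5 passed the filter on low counts, and 4 (Il2, Il3, Il4 and Il17a) were too low to be tested. The 5 that passed were Il21, Lta, Csf2, Ifng and Il13. Il21 passed only through the counts of 1 group, so it had to differ between groups, and its p-values are given as descriptions that support nothing. Csf2 would not have passed without the counts of the same group (AlloTem, described below), since too few other libraries reached the minimum count of 10. Its p-values in comparisons with that group are likewise descriptions that support nothing.

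Resting T cells transcribe most cytokine genes weakly, and transcription rises within hours of contact with antigen on a DC. The signal from the T cell receptor raises calcium, which brings NFAT proteins to the nucleus, where they bind cytokine promoters together with AP-1 and other factors. The set of cytokines that follows depends on the kind of T helper cell: interferon gamma and lymphotoxin alpha mark type 1 cells, interleukin 4 and interleukin 13 type 2 cells, interleukin 17A the Th17 kind, and interleukin 21 the cells that help B cells. DCs carry receptors for several of these proteins, and GM-CSF, the product of Csf2, is widely used to grow DCs from bone marrow.

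The series has 4 groups of 3 libraries, all from splenic DCs of C57BL/6 (B6) mice that carried B16 melanoma cells secreting Flt3 ligand, a factor that expands DCs. Beads had been used to remove T cells, B cells, natural killer (NK) cells and macrophages. After 3 h of culture the DCs were sorted on CD11b and CD11c. AlloTem DCs were kept with memory T cells of BALB/c origin that are specific for alloantigen. SynTem DCs were kept with memory T cells of the DCs' own B6 strain, LPS DCs with lipopolysaccharide, a bacterial cell wall component, and DC only cells had nothing added. The added T cells thus differ in strain of origin as well as in what they recognise, and these cannot be told apart. The labels do not say that replicates came from separate mice, so p-values measure only library-to-library spread, possibly technical.

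Library totals ranged from 13903574 to 21861156 counts. A deposited batch number equalled the replicate number in 12 of 12 libraries. All 9 DC markers checked, among them Itgax, Flt3 and Zbtb46, were present in each group, with summed levels of 8.98e+03 to 1.6e+04 CPM (counts over the TMM-adjusted library total, on a common scale) in AlloTem, 8.1e+03 to 1.23e+04 in SynTem, 1.11e+04 to 1.54e+04 in LPS and 1.02e+04 to 1.26e+04 in DC only.

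Promoter windows are shown for the 5 genes on which the comparison of AlloTem with SynTem turns, either because the AlloTem libraries stood clear of the SynTem libraries or, for Il13, because it neighbours Il4. Each window runs from 250 bases before to 50 after a RefSeq transcript start (GRCm38.p6), written 5′ to 3′ on the strand of the gene. Capitals mark GGAAA, the core letters bound by NFAT proteins, which reads TTTCC where it lies on the opposite strand, and TATAAA, the TATA box. In Il13 the capitals hold TATAAA on both strands, and these matches overlap. The Csf2 start in RefSeq lies 232 bases from the GENCODE start, and for Il4 the upstream of 2 RefSeq windows is shown.
Il21 promoter, chr3:37232587-37232886, minus strand: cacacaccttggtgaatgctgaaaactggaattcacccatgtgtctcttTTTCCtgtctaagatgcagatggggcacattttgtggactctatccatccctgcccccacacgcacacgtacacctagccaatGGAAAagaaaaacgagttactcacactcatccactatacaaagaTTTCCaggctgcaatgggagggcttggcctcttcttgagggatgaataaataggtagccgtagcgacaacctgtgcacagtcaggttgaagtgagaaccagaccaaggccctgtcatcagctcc
Csf2 promoter, chr11:54249850-54250149, minus strand: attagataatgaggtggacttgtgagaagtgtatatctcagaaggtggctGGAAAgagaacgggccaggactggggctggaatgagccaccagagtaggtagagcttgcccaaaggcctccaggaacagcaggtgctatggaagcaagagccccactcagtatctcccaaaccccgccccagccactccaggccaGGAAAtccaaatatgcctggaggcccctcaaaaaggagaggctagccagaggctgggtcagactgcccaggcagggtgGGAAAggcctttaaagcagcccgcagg
Il3 promoter, chr11:54267230-54267529, minus strand: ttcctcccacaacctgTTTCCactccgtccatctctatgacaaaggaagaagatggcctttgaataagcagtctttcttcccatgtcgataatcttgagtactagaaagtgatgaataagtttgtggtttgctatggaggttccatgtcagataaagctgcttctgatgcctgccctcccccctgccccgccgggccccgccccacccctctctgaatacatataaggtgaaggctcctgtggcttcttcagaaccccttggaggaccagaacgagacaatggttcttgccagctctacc
Il4 promoter, chr11:53618616-53618915, minus strand: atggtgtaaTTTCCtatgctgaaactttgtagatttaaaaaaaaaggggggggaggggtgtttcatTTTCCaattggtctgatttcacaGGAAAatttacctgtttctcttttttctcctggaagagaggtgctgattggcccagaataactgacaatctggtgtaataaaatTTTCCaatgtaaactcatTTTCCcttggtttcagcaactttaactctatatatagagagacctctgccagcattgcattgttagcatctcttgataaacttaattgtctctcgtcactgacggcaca
Il13 promoter, chr11:53634653-53634952, minus strand: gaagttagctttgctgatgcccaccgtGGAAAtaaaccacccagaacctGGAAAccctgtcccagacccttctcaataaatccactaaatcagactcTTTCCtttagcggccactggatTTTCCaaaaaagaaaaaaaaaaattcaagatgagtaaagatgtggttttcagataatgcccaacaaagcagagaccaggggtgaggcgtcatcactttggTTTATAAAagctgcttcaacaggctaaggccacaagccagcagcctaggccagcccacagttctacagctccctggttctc

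These windows held 3 GGAAA matches for Il21, 3 for Csf2, 1 for Il3, 5 for Il4 and 4 for Il13. Lta, whose window is not printed, held 3. Of the 10 windows of the 9 cytokine genes (Il4 has 2), 9 held GGAAA on either strand and 5 held 3 or more matches. Of all 32851 promoter windows in the RefSeq table, 61.3% held it and 9.42% held 3 or more. Il17a, which had no count in any library, was the gene without it. TGANTCA, the AP-1 motif, was present on either strand in 1 of the 10, that of Il17a, and in 7.81% of all windows, while TATAAA was present in 5 of the 10 and in 13.6% of all windows. The 10 windows held 38% to 59% G and C, against a median of 52.7% over all windows. A match is a description of letters and was not tested as a binding site.

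T cell transcripts set the frame for the cytokine counts. Cd3e had 138, 59 and 83 counts in AlloTem libraries 1 to 3, 144, 756 and 512 in SynTem, 20, 4 and 6 in LPS and 0, 1 and 5 in DC only. Every library sorted from a culture with T cells held more Cd3e than every library from a culture without, and the SynTem libraries held the most. The fitted Cd3e difference between AlloTem and SynTem was -2.73 ± 0.67 (log2, SE; edgeR quasi-likelihood test, adjusted p = 0.159). Set against DC only, Cd3e was higher by 5.27 ± 0.93 in AlloTem (edgeR, adjusted p = 0.024) and by 8.0 ± 0.96 in SynTem (edgeR, adjusted p = 0.0161). In sorted bulk cells, fewer T cells and less RNA per T cell cannot be told apart.

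The cytokine counts ran the other way. The 9 genes summed to 632, 798 and 159 counts in AlloTem, 86, 100 and 131 in SynTem, 110, 65 and 38 in LPS and 49, 36 and 18 in DC only. Each AlloTem library had more cytokine counts than any other library, on fewer Cd3e counts than its SynTem counterpart of the same batch. Scaled to library totals, however, the sum of AlloTem 3 (7.51 CPM) was below that of SynTem 3 (7.77 CPM). Per 100 Cd3e counts this came to 458, 1.35e+03 and 192 cytokine counts in AlloTem libraries 1 to 3, against 59.7, 13.2 and 25.6 in SynTem. LPS libraries held 213 cytokine counts in all beside 30 Cd3e counts, and DC only libraries 103 beside 6. Most of these cytokine counts were Lta (115 in LPS, 59 in DC only) and Ifng (57 in LPS, 29 in DC only). Pooled per 100 Cd3e counts, the sums were 710 in LPS and 1.72e+03 in DC only, above the 568 of AlloTem. A high value per Cd3e count was thus not particular to cultures with T cells, and in LPS and DC only it rests on few Cd3e counts.

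**Figure D1:**
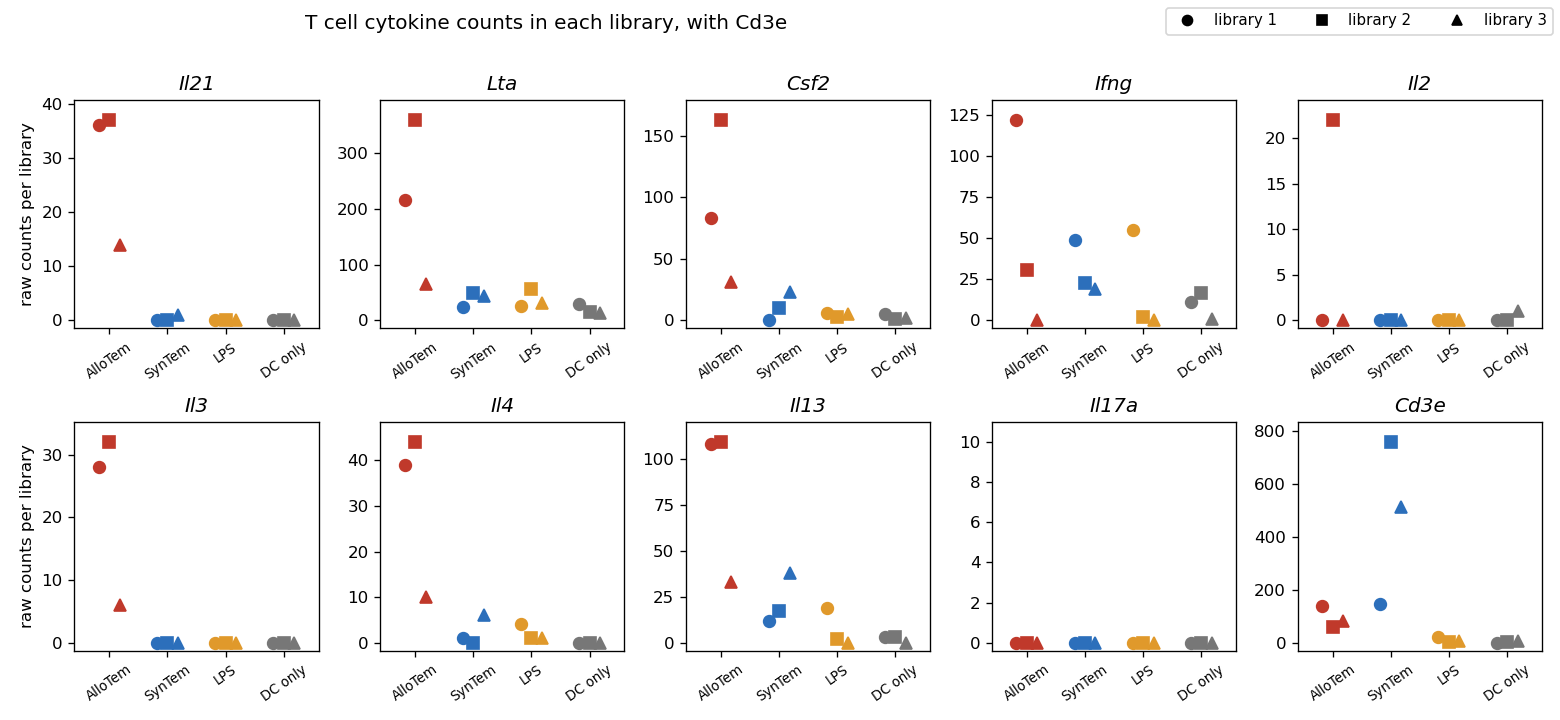
Raw counts (y axis, a scale per panel) of the 9 cytokine genes and Cd3e in each of the 12 libraries, by group (x axis), with a point per library whose shape gives its number. Il21 and Il3 have 14 to 37 and 6 to 32 counts in AlloTem and at most 1 in any other library, whereas Cd3e is highest in SynTem.

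Interleukin 21 and interleukin 2 signal through receptors that share the common gamma chain. Il21, on the minus strand of chr3:37222759-37232636 with 3 exons, had 36, 37 and 14 counts in AlloTem, 0, 0 and 1 in SynTem, and 0 in all LPS and DC only libraries. Its counts were thus nearly all in AlloTem, where each library stood above every other library of the series. Pooled over libraries, the AlloTem level was 64.3 times that of SynTem, with a 95% interval of 11.2 to 2.57e+03 from counting error only (Clopper-Pearson). The edgeR adjusted p was 0.124 for AlloTem against SynTem. Against DC only, the level was at least 25.1-fold higher in AlloTem, taking 3 counts over the group as the floor, with an edgeR adjusted p of 0.0348. Il21 shares 469 exon bases (8.92%) with the antisense gene Gm12534, which had 0 counts.

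Il2, the classical T cell growth factor, had 0, 22 and 0 counts in AlloTem, 0 in all SynTem and LPS libraries and 0, 0 and 1 in DC only. All its AlloTem counts came from library 2, so the groups overlapped and the level without that library was 0 CPM (exact two-sided permutation test of AlloTem against SynTem over 3 and 3 libraries, p = 1). A library with 0 counts allows up to 0.142 to 0.223 CPM (3 counts of the TMM-adjusted total). Il2 lies 96.8 kb from Il21 on chromosome 3.

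Csf2 and Il3 encode GM-CSF and interleukin 3, growth factors for myeloid cells whose receptors share a beta chain, and lie 15.6 kb apart on chromosome 11. Csf2 had 83, 163 and 31 counts in AlloTem, 0, 10 and 23 in SynTem, 6, 3 and 5 in LPS and 5, 1 and 2 in DC only. All AlloTem libraries exceeded all others, though AlloTem 3 and SynTem 3 were close at 1.46 and 1.36 CPM. The fitted difference from SynTem was 2.71 ± 0.93 (log2, SE; edgeR, adjusted p = 0.351), and that from DC only was 4.83 ± 1.08 (edgeR, adjusted p = 0.0528). Neither passed the threshold of 0.05, and Csf2 had entered the test through its AlloTem counts. The difference from SynTem was 1.97 without AlloTem 2 and 3.75 without SynTem 3, and that from DC only was 4.09 without AlloTem 2 and 5.72 without DC only 1. Csf2 shares 96 exon bases (12%) with the antisense Gm12223, which had 0 counts.

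Il3 had 28, 32 and 6 counts in AlloTem and none in the other 9 libraries. Its pooled level was at least 16.3-fold higher in AlloTem than in SynTem, taking 3 counts over the SynTem group as the floor. The exact two-sided permutation test on CPM gave p = 0.1, the smallest that 3 against 3 libraries allow. Il3 averaged 1.07 ± 0.691 CPM in AlloTem and 0 in SynTem (SD, n = 3 each).

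Il4 and Il13, the type 2 cytokines, lie 12.7 kb apart, also on chromosome 11 and 612.6 kb (Il13) and 628.6 kb (Il4) from Csf2. Il4 had 39, 44 and 10 counts in AlloTem, 1, 0 and 6 in SynTem, 4, 1 and 1 in LPS and 0 in DC only. The AlloTem libraries again stood above all others, with a pooled ratio to SynTem of 9.82 (95% interval 4.58 to 25.1, counting error only; exact two-sided permutation p = 0.1). Il13 had 108, 109 and 33 counts in AlloTem, 12, 17 and 38 in SynTem, 19, 2 and 0 in LPS and 3, 3 and 0 in DC only. AlloTem and SynTem overlapped here, because SynTem 3 had more Il13 than AlloTem 3, and the fitted difference was 1.51 ± 0.97 (log2, SE; edgeR, adjusted p = 0.659). The difference of AlloTem from DC only was 5.06 ± 1.23 (edgeR, adjusted p = 0.0793), and 4.44 without DC only 3.

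Basophils and mast cells can also make interleukin 4, interleukin 13 and interleukin 3, and their 8 markers, none of which was at 0 in any group, moved with these genes in part. The markers summed to 252, 49.6 and 57.1 CPM in AlloTem, 24, 5.13 and 58 in SynTem, 32.3, 19.6 and 3.36 in LPS and 13.8, 14.1 and 3.33 in DC only. None of the 8 was called between AlloTem and SynTem (3 at an unadjusted p under 0.05, as were 9.58% of all genes tested). Of these 3, Fcer1a had entered the test through its AlloTem counts alone, so its p-value is a description that supports nothing. All 8 had a fitted difference above 0 between AlloTem and SynTem, with a median of 2.11 (log2) against -0.01 over all genes tested. Cpa3 was the 1 called between AlloTem and DC only, where 1.35% of all genes tested were called higher in AlloTem. There all 8 were higher at an unadjusted p under 0.05, as were 1088 of 14413 genes tested. The list was drawn up with earlier results of these data known, so these are descriptions. AlloTem 2, with the most Il3 and Il4 counts, had a lower marker sum than SynTem 3, which had 0 Il3 and 6 Il4 counts, but single markers were split. Hdc (201 against 388 counts), Gata2 (72 against 122) and Cd200r3 (20 against 46) had fewer counts in AlloTem 2 than in SynTem 3. The rest of the 8 had more, among them Prss34 (407 against 245) and Mcpt8 (156 against 97). Fcer1a, a chain of the high-affinity IgE receptor, had 177, 13 and 48 counts in AlloTem against 0, 0 and 2 in SynTem. The part of these cells in the Il3, Il4 and Il13 counts was not tested.

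Ifng and Lta belong with type 1 responses. Lta encodes lymphotoxin alpha, which binds the receptors for tumour necrosis factor and, joined to lymphotoxin beta, the lymphotoxin beta receptor. Lta had 216, 360 and 65 counts in AlloTem, 24, 50 and 44 in SynTem, 26, 57 and 32 in LPS and 30, 15 and 14 in DC only. It was the cytokine with the most counts in every group, and each AlloTem library lay above every SynTem library in counts, but not in CPM, where AlloTem 3 (3.07) fell below the highest SynTem library (3.17). The fitted difference was 2.04 ± 0.60 from SynTem (log2, SE; edgeR, adjusted p = 0.247) and 3.19 ± 0.63 from DC only, where Lta was called (edgeR, adjusted p = 0.0321). Without AlloTem 2 these were 1.39 and 2.55. Its neighbour Tnf, 1.2 kb away on chromosome 17 and strongly transcribed by DCs themselves, had 2980, 2523 and 1263 counts in AlloTem and 1470, 280 and 1420 in SynTem (0.63 ± 0.63, edgeR, adjusted p = 0.801).

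Ifng had 122, 31 and 0 counts in AlloTem, 49, 23 and 19 in SynTem, 55, 2 and 0 in LPS and 11, 17 and 1 in DC only. The groups overlapped, and the AlloTem libraries included both the highest count of the series and a count of 0. The fitted difference from SynTem was 0.24 ± 1.54 (log2, SE; edgeR, adjusted p = 0.976), and without AlloTem 1 it was -1.42. Summed levels of 8 NK cell markers, none at 0, were 650, 91.3 and 86.3 CPM in AlloTem, 478, 128 and 142 in SynTem, 662, 88.3 and 55.2 in LPS and 228, 232 and 64.1 in DC only. In AlloTem, SynTem and LPS alike, library 1 had the most Ifng and the highest NK sum, and DC only 2, with the most Ifng of its group, had the highest NK sum of its group. None of the 8 NK markers was called between AlloTem and SynTem (0 at an unadjusted p under 0.05). Their part in the Ifng counts was not tested. Ifng shares 336 exon bases (25.9%) with Gm49751 on the same strand, which had 0 to 10 counts per library.

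Il17a, the Th17 cytokine, had 0 counts in all 12 libraries, so it was not detectable at this depth. Gamma delta T cells, which can also make interleukin 17A, were represented by 5 markers that summed to 4.08, 0.496 and 2.27 CPM in AlloTem and 3.94, 45.1 and 34.6 in SynTem. Trdc, the constant chain of their receptor, had 75, 4 and 12 counts in AlloTem and 42, 413 and 375 in SynTem. SynTem libraries 2 and 3, which hold the most Trdc, thus had no Il17a count.

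AlloTem was set against SynTem to ask how allo-specific T cells differ from T cells of the DCs' own strain in what they leave in the sorted cells. None of the 5 tested cytokine genes was called higher by edgeR, and 0.153% of the 14413 genes tested were (22 genes), with 0.0139% called lower (2 genes). At an unadjusted p under 0.05, Il21, Lta and Csf2 were higher, as were 5.68% of all genes tested. Of these, Il21 and Csf2 had entered the test through their AlloTem counts. DESeq2 called Il21 (adjusted p = 0.0268) and Lta (adjusted p = 0.0341), among 318 of the 14413 genes called in either direction. Over the alternatives tried, the adjusted p of Il21 ranged from 0.0268 to 0.506 and that of Lta from 0.0341 to 0.905.

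In CPM all 3 AlloTem libraries lay above all 3 SynTem libraries for 4 of the 9 genes (Il21, Csf2, Il3 and Il4), 2 of which were tested. Of all genes tested, 7.09% showed such a separation. Within batches, the log2 ratio of AlloTem to SynTem (0.5 CPM added) was 2.14, 2.22 and 1.05 for Il21 and 1.87, 2.06 and 0.65 for Il3. It was 2.03, 2.42 and 0.18 for Il4, 3.15, 2.92 and 0.08 for Csf2 and 2.24, 2.32 and 0.20 for Lta. All 5 ratios were above 0 in 3 of 3 batches, and batch 3 gave the smallest each time. For Il21, Il3, Il4 and Csf2 the sign follows from the separation in CPM, whatever the pairing, and adds nothing to it. Only Lta could have given another sign. Il13 gave 2.02, 1.91 and -0.42, and Ifng 0.60, 0.06 and -1.70, so that batch 3 reversed both.

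Set beside Cd3e counts of the same library, the cytokine genes except Ifng, Il2 and Il17a separated AlloTem from SynTem completely. Lta had 157, 610 and 78.3 counts per 100 Cd3e counts in AlloTem, against 16.7, 6.61 and 8.59 in SynTem. Il21 had 26.1, 62.7 and 16.9 in AlloTem, against 0, 0 and 0.195 in SynTem. For Il13, which overlapped in CPM, the values were 78.3, 185 and 39.8 in AlloTem, against 8.33, 2.25 and 7.42 in SynTem. The lowest AlloTem value of each of these genes was above the highest SynTem value, and the difference includes the lower Cd3e counts of AlloTem. In raw counts, every AlloTem library already had less Cd3e than every SynTem library, and more Il21, Lta, Csf2, Il3 and Il4. The separation of those cytokine genes per Cd3e count was therefore fixed and adds nothing. Among the separated genes only Il13, whose raw counts overlapped, could have failed. In LPS libraries 1 to 3, on 20, 4 and 6 Cd3e counts, Lta had 130, 1.42e+03 and 533, Il13 had 95, 50 and 0, and Il21 had 0 in each.

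On the log2 scale with 0.5 counts added to each count, AlloTem minus SynTem per Cd3e count was 7.35 for Il21, 7.30 for Il3, 6.08 for Il4, 6.04 for Csf2, 4.29 for Lta and 3.97 for Il13. Each of these 6 gave an exact two-sided permutation p of 0.1, the smallest that 3 against 3 allows, without adjustment for the 8 genes compared. For all of them except Il13 the raw counts had fixed this p, so it supports nothing. Il2, at 0 in 5 of the 6 libraries, gave 3.95 with the same exact permutation p of 0.1, so the added 0.5 and the lower Cd3e counts of AlloTem can reach this p where only AlloTem 2 holds the cytokine. The values for Il21 and Il3 rest on added counts in SynTem, where the genes had 1 count and 0. Ifng differed by 0.93 (exact permutation p = 0.8), and per 100 Cd3e counts it had 88.4, 52.5 and 0 in AlloTem against 34.0, 3.04 and 3.71 in SynTem. Within batches the per-Cd3e difference was smallest in batch 3 for Il21 (5.89), Csf2 (3.04), Lta (3.18), Il4 (3.31) and Il13 (2.42), and in batch 1 for Il3 (5.89).

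**Figure D2:**
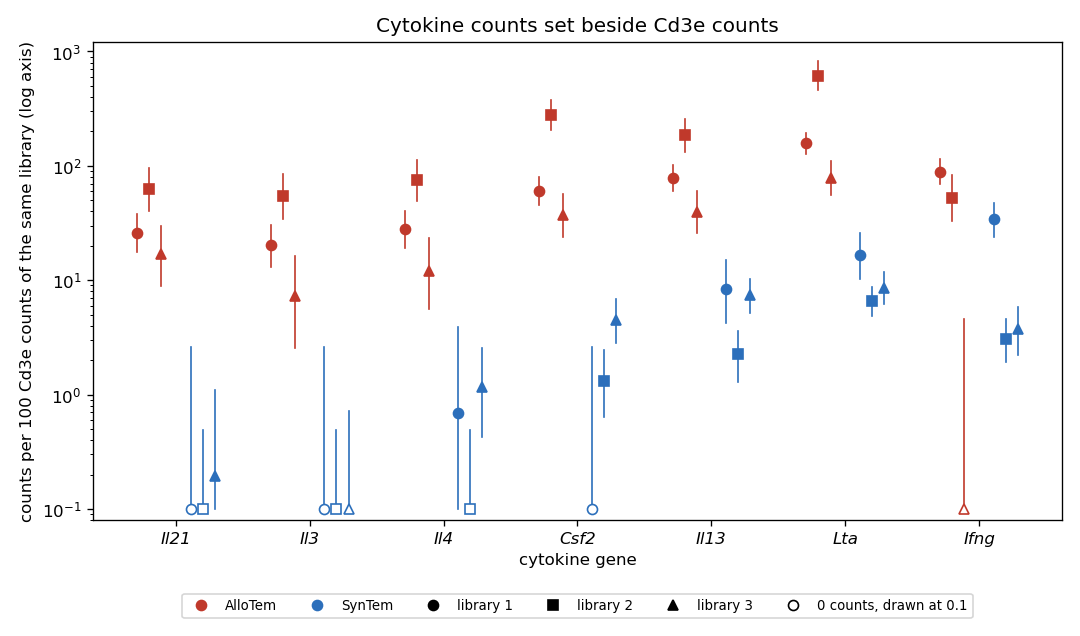
Counts of 7 cytokine genes (x axis) per 100 Cd3e counts of the same library (y axis, log scale) in 3 AlloTem and 3 SynTem libraries. Lines are 95% Clopper-Pearson intervals, which cover counting error only, and open symbols mark 0 counts, drawn at 0.1. AlloTem lies above SynTem in all libraries for every gene shown except Ifng, where AlloTem 3 had 0 counts. For the separated genes, Il13 excepted, the raw counts of the gene and of Cd3e had fixed this.

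Set against DC only, edgeR called Lta higher in AlloTem, and 1.35% of all genes tested. Il21 also passed the threshold, but it entered the test through its AlloTem counts alone. These calls did not survive most alternatives. Leaving out AlloTem 1 or 2 or any DC only library left 0 of the 5 called, and leaving out AlloTem 3 left 3. With the batch number as a replicate block, Lta was called (edgeR, adjusted p = 0.0213) and Il21 stood at an adjusted p of 0.05. DESeq2 called 4, adding Csf2 (adjusted p = 0.000217) and Il13 (adjusted p = 0.000762), among 676 of the 14413 genes called in either direction. Of these 4, Il21 and Csf2 had entered the test through their AlloTem counts. In CPM, 6 of the 9 genes separated all AlloTem from all DC only libraries (Il21, Lta, Csf2, Il3, Il4 and Il13), as did 9.35% of genes tested. Among the genes the filter removed, Il4 was called when no filter was used (edgeR, adjusted p = 0.0272) and Il3 was not (edgeR, adjusted p = 0.0808). Without the filter, 231 of 25444 genes were called in either direction.

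SynTem was set against DC only to ask what T cells of the DCs' own strain add. None of the 5 genes was called in SynTem against DC only, where 0.0763% of all genes tested were called higher, and Il13 was the 1 gene higher at an unadjusted p under 0.05, as were 4.83% of all genes tested. Its difference was 3.55 ± 1.23 (log2, SE; edgeR, adjusted p = 0.414). Lta differed by 1.16 ± 0.62 (edgeR, adjusted p = 0.665) and Csf2 by 2.12 ± 1.1 (edgeR, adjusted p = 0.652). SynTem against DC only and AlloTem against DC only share the DC only libraries as controls, and the SynTem libraries enter both AlloTem against SynTem and SynTem against DC only, on opposite sides.

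Lipopolysaccharide, added with no T cells, left the 5 tested genes uncalled by edgeR and by DESeq2, none of them at an unadjusted p under 0.05. Across all genes edgeR called 0% higher in LPS than in DC only, 531 of 14413 had an unadjusted p under 0.05 in either direction, and DESeq2 called 10. Lta differed by 1.00 ± 0.62 (log2, SE; edgeR, adjusted p = 0.999). Il13 had 19 of its 21 LPS counts, and Ifng 55 of its 57, in LPS library 1, and without that library the fitted differences were -0.90 and -3.13.

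For AlloTem against LPS, edgeR called none of the 5 genes and 0.395% of all genes tested higher. At an unadjusted p under 0.05, 4 of the 5 were higher, as were 4.27% of all genes tested. Il21 and Csf2 were among the 4 and had entered the test through their AlloTem counts. Il21 had an adjusted p of 0.0701 by edgeR and of 0.0405 when no filter was used. DESeq2 called Lta (adjusted p = 0.0154) and Csf2 (adjusted p = 0.00421), among 288 of the 14413 genes called in either direction. In CPM all 3 AlloTem libraries lay above all 3 LPS libraries for 5 of the 9 genes (Il21, Csf2, Il3, Il4 and Il13), 3 of which were tested, as they did for 5.52% of all genes tested.

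**Figure D3:**
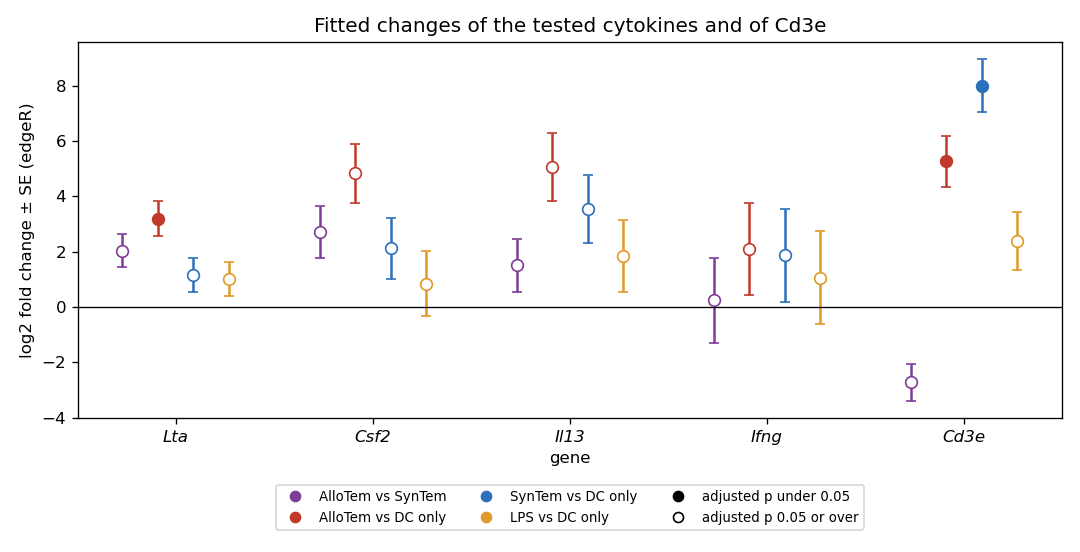
Fitted log2 fold changes (y axis, ± SE; edgeR over 12 libraries) of 4 tested cytokine genes and Cd3e (x axis) in 4 comparisons, first-named group over the other, with filled points for an adjusted p under 0.05. Among the cytokines only Lta in AlloTem against DC only is filled, at 3.19, while Cd3e is at -2.73 for AlloTem against SynTem; Il21 is left out because its comparison groups had at most 1 count.

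Per kilobase of exon, the order of mean levels in AlloTem was Lta (7.52 CPM per kb), Csf2 (5.62), Il13 (3.35), Ifng (1.89), Il3 (1.70), Il4 (1.22), Il2 (0.318), Il21 (0.267) and Il17a (0). Lta, Csf2, Il13, Il3, Il4 and Il21 stood in that order in 3 of 3 AlloTem libraries. Ifng and Il2 had no stable place, since Ifng was the third highest in library 1 and at 0 in library 3. Il21, with 5259 exon bases in the annotation against 629 for Il3, ranked low per length although its counts were like those of Il3. Neighbours in the order differed by less than the larger of their SDs between libraries (5.35 for Lta, 4.18 for Csf2), except Il4 over Il2 and Il21 over Il17a.

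The AlloTem libraries were not alike. Library 3 had the fewest counts of all 8 detected genes except Il2, which was at 0 in library 1 too. In CPM, library 2 exceeded library 3 by 2.78 times for Il21, 5.82 times for Lta, 5.53 times for Csf2, 5.61 times for Il3, 4.62 times for Il4 and 3.47 times for Il13, whereas Cd3e was at 0.747 times its library 3 level. Library 1 exceeded library 3 by 2.59 to 4.69 times for the same 6 genes and by 1.67 times for Cd3e. Across all 12 libraries Il21, Lta and Csf2 correlated with each other at Pearson r of 0.84 to 0.88 on log2 CPM, and Ifng with Il21, Lta and Csf2 at 0.21 to 0.34, which describes libraries that share groups and batches.

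The genes whose log2 CPM over the 12 libraries was most like that of each tested cytokine were named by a fixed rule (the 3 highest Pearson r, with no p). For Il21 they were Irf4 (r = 0.97), Hbegf (0.959) and Orai1 (0.955). Since Il21 had almost no counts outside AlloTem, these r mainly set AlloTem against the other groups. Shared regulation was not tested. For Csf2 they were Sphk1 (0.965), Hbegf (0.94) and Gm19221 (0.939), and for Lta Klhdc4 (0.949), Pgf (0.925) and Gadd45g (0.922). Ifng was most like Tbx21 (0.96), Il12rb2 (0.939) and Cmah (0.935), and Il13 most like Dok2 (0.938), Rhoh (0.936) and Cyp11a1 (0.935). Irf4, also expressed by DCs, averaged 384 ± 83.7 CPM in AlloTem and 108 ± 11.4 in SynTem (SD, n = 3 each), far above the Il21 level of 1.40 ± 0.645 CPM in AlloTem.

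Other products of activated T cells were mixed. Of 20 further T cell cytokine and effector ligand genes, 15 were tested, and none was called between AlloTem and SynTem. At an unadjusted p under 0.05 stood 5 of them and 9.58% of all genes tested. Il10, 1 of the 5, would not have passed the filter without its AlloTem counts. The median log2 difference of the 15 was 0.63 against -0.01 over all genes tested, a description only, since the list was drawn up with earlier results of these data known. Against DC only, where 1.35% of all genes tested were called higher in AlloTem, 3 of the 15 were: Ccl4, Cd40lg and Lif. Cd40lg, which encodes the ligand by which helper T cells engage CD40 on DCs, had 79, 86 and 43 counts in AlloTem, 11, 11 and 15 in SynTem and 0 in every LPS and DC only library. Per 100 Cd3e counts it had 57.2, 146 and 51.8 in AlloTem and 7.64, 1.46 and 2.93 in SynTem, so it separated the groups as the cytokine genes did (2.05 ± 0.44 on the fitted log2 scale; edgeR, adjusted p = 0.167). The raw counts of Cd40lg and of Cd3e had fixed this separation. Il5, the third type 2 cytokine of the chromosome 11 cluster, had 5, 5 and 2 counts in AlloTem against 0, 1 and 0 in SynTem. The 3 ligands of the list with the highest levels, Tgfb1, Ccl5 and Tnf, are made by DCs and other cells and had adjusted p of 0.612, 0.951 and 0.801 between AlloTem and SynTem (edgeR).

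Receptor chains for these cytokines were present in all groups. None of the 17 was at 0 in any group, and 16 were tested. Between AlloTem and SynTem edgeR called 0 (0 at an unadjusted p under 0.05), with a median log2 difference of 0.00. Csf2rb, the shared beta chain for GM-CSF and interleukin 3, averaged 1100 ± 118 CPM in AlloTem and 885 ± 222 in SynTem (0.31 ± 0.23 on the fitted log2 scale; edgeR, adjusted p = 0.713). Ifngr1 and Tnfrsf1b, the next highest, had adjusted p of 0.633 and 0.976 (edgeR). Against DC only, 2 of the 16 rose in AlloTem, where 1.35% of all genes tested were called higher. They were Il4ra, the chain shared by the receptors of interleukin 4 and interleukin 13, by 1.31 ± 0.28 (edgeR, adjusted p = 0.0438), and Il2ra by 2.51 ± 0.53 (edgeR, adjusted p = 0.0444). Il2ra, which T cells carry too, averaged 33.8 ± 18.2 CPM in AlloTem and 45.7 ± 23.3 in SynTem, where Cd3e was higher.

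Genes that respond to these cytokines in DCs or other cells were read from a list of 14. Between AlloTem and SynTem 2 rose, Irf4 by 1.83 ± 0.16 (log2, SE; edgeR, adjusted p = 0.00276) and Ccl17, a chemokine that GM-CSF and interleukin 4 induce in DCs, by 6.07 ± 0.72 (edgeR, adjusted p = 0.0126). Ccl17 had 1530, 3829 and 1399 counts in AlloTem, 7, 28 and 42 in SynTem, 6, 4 and 1 in LPS and 0, 6 and 0 in DC only, without overlap between AlloTem and the rest. Cish, a feedback inhibitor of STAT5 signalling, had 5471, 6230 and 4349 counts in AlloTem and 116, 561 and 1222 in SynTem but was not called (2.73 ± 0.58, edgeR, adjusted p = 0.115). Of the 14, 9 had an unadjusted p under 0.05, 8 of them higher and 1 lower in AlloTem, as had 9.58% of all genes tested, of which 0.153% were called higher. The median log2 difference of the 14 was 1.26 against -0.01 over all genes tested. The list was drawn up with earlier results of these data known, so its counts and median are descriptions that support nothing. Against DC only, where 1.35% of all genes tested were called higher in AlloTem, 7 of the 14 rose: Ccl17, Irf4, Cish, Socs1, Socs2, Socs3 and Il6. Several of these genes also respond to other signals, and whether the cytokines named here acted on them was not tested.

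Transcription factors of T helper cells were read from a list of 10, all tested, and edgeR called 0 between AlloTem and SynTem. At an unadjusted p under 0.05 stood 4 of them, 1 higher and 3 lower, and 9.58% of all genes tested. Tbx21, the type 1 factor, averaged 20.7 ± 13.2 CPM in AlloTem and 25.3 ± 5.53 in SynTem, and Gata3, the type 2 factor, averaged 6.07 ± 2.69 CPM in AlloTem and 7.95 ± 2.52 in SynTem (SD, n = 3 each). The 3 with the highest levels, Bcl6, Nfatc1 and Nfatc2, gave -0.75 ± 0.21, -0.19 ± 0.16 and -0.40 ± 0.12 between AlloTem and SynTem (log2, SE; edgeR, adjusted p = 0.212, 0.752 and 0.284). These 3 averaged 224, 172 and 153 CPM in DC only, where Cd3e had 0, 1 and 5 counts, so they cannot be read as T cell levels here. NFAT factors bind the GGAAA core marked in the promoters above. Against DC only, edgeR called 1 of the 10 higher in AlloTem, Batf by 1.04 ± 0.21 (log2, SE; adjusted p = 0.0362). It called 2 lower, Bcl6 at -1.13 ± 0.21 and Nfatc2 at -0.68 ± 0.12 (edgeR, adjusted p = 0.0257 and 0.0241). Of all genes tested, 1.35% were called higher and 59 of 14413 lower.

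Summed T cell markers were, like Cd3e, highest in SynTem. The 20 markers, none at 0, came to 298, 181 and 150 CPM in AlloTem, 314, 679 and 549 in SynTem, 187, 113 and 70.3 in LPS and 87.9, 102 and 65.9 in DC only. All SynTem libraries lay above all AlloTem libraries, but, unlike Cd3e, the sum of LPS 1 was above those of AlloTem 2 and 3. None of the 20 markers was called between AlloTem and SynTem. At an unadjusted p under 0.05 stood 12 of them, all lower in AlloTem, and 9.58% of all genes tested in either direction. Replacing Cd3e by the sum of Cd3e, Cd3d, Cd3g, Trac and Trbc2 left the per-transcript differences at 7.16 for Il21, 7.12 for Il3, 5.86 for Csf2 and 4.11 for Lta.

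**Figure D4:**
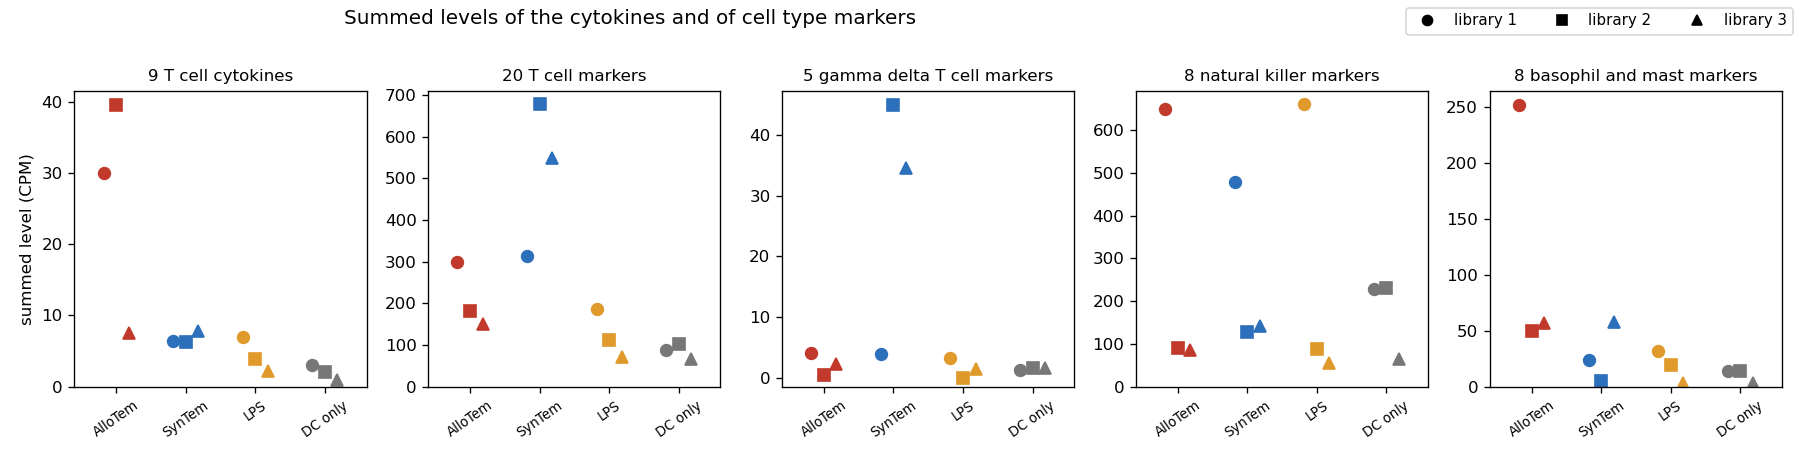
Summed levels (y axis, CPM, a scale per panel) of the 9 cytokine genes and of marker lists for T cells, gamma delta T cells, NK cells and basophils or mast cells in each library, by group (x axis), with shapes for the library number. The cytokine sum is highest in AlloTem 1 and 2 (30.0 and 39.6 CPM), T cell markers in SynTem, NK markers in library 1 of AlloTem, SynTem and LPS, and basophil and mast cell markers in AlloTem 1.

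Several genes that lie beside the cytokine genes were also measured. Rad50, a DNA repair gene 14.8 kb from Il13, differed by -0.17 ± 0.15 between AlloTem and SynTem (log2, SE; edgeR, adjusted p = 0.764). Kif3a, a kinesin gene 1.0 kb from Il4, differed by -0.26 ± 0.23 (edgeR, adjusted p = 0.768), and Acsl6, 36.5 kb from Il3, had 0 counts in every library. Ltb, 6.8 kb from Lta and encoding its partner lymphotoxin beta, had 967, 1237 and 614 counts in AlloTem and 717, 1267 and 1262 in SynTem (-0.61 ± 0.27, edgeR, adjusted p = 0.508). Il17f, a cytokine gene 42.6 kb from Il17a, had 2, 0 and 3 counts in AlloTem and 0, 2 and 1 in SynTem, too few to be tested.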

How the data were processed

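RNA sequencing of 12 libraries was used. Per the labels' protocols, RNA was treated with DNase, and TruSeq libraries gave single-end NextSeq reads. Values are the authors' deposited counts per gene, whole numbers without normalization, and a second deposited table gives each library a batch number (unit score, equal to the replicate number). The submitters' processing notes name the build mm10. Aligner, counting tool, strand setting and annotation: not given in the sources used here. GENCODE M21 gave symbols, positions and exon lengths by identifier, for 52028 of 57009.

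Genes were filtered with filterByExpr (minimum count 10, minimum total 15), leaving 14413, scaled by TMM and fitted over 12 libraries, without covariates besides group, by robust quasi-likelihood in edgeR 4.0.16 under R 4.3.3. P-values were adjusted by Benjamini-Hochberg over all genes tested and called genes have an adjusted p under 0.05. SEs are log2 fold changes over the root of F. Genes removed by the filter, and counts per Cd3e count with 0.5 added, were compared by exact permutation in scipy 1.17.1. The cytokine genes, lists and tests were chosen with earlier results of these data known. Named besides the cytokines are list members called between AlloTem and SynTem, otherwise up to 3 with the highest mean CPM, and the 3 genes most correlated with each tested cytokine; others were chosen after their values were seen.

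Batch numbers were taken as pairs because the deposited table gives them. Deviations from group means correlated at a median r of 0.25 over 18 same-batch pairs (-0.25 to 0.63, 12 above 0.1) and -0.2 over 36 others. Alternatives were RLE scaling, no filter, DESeq2 1.42.0, the batch as a replicate block, only the 6 libraries compared, another T cell reference sum, another pseudocount and each library left out. Leaving out DC only 2 with SynTem 2 was added after seeing the data, as their pairing was in doubt. Scripts were tested on simulated counts.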

Additional observations from a re-analysis of the deposited data

How the results depend on the processing

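Of 271 alternative values for the log2 fold changes of the tested cytokine genes, 242 kept their direction and side of the threshold, 15 lost a call, 8 gained one and 6 changed sign. The sign changes for Ifng were, between AlloTem and SynTem, -0.82 with the replicate block and a range of -1.42 to 0.92 when each library was left out, -3.13 to 1.72 between LPS and DC only, and -0.62 to 5.24 between AlloTem and LPS. For Il13 the range between LPS and DC only was -0.90 to 2.44. Per Cd3e count, Ifng ranged from -0.39 to 3.21 when each library was left out, and the Il2 difference in CPM from 0 to 0.546. Cytokine genes called higher by DESeq2 were 2 for AlloTem against SynTem, 4 against DC only and 2 against LPS, where no filter gave 1. Against DC only the replicate block gave 1, the 6 libraries alone 0, leaving out DC only 2 and SynTem 2 gave 0, and single libraries left out 0 to 3. All genes called between AlloTem and SynTem numbered 24, against 41 without the filter, 318 by DESeq2, 78 with the replicate block, 0 with 6 libraries, 2 without DC only 2 and SynTem 2, and 3 to 46 with single libraries left out. Between AlloTem and DC only they numbered 253, against 676 by DESeq2, 420 with the block, 96 with 6 libraries, 16 without those 2 libraries and 42 to 324 with single libraries left out. Between SynTem and DC only they numbered 13, against 33, 254, 21, 1 and 1 in the order used for AlloTem against SynTem, and 0 to 52. Between LPS and DC only there were 0, against 10 by DESeq2, 1 without the 2 libraries and 0 to 1. Between AlloTem and LPS there were 65, against 288 by DESeq2, 136 with the block, 9 with 6 libraries and 11 to 50. The causes were not tested. Counts of 0 to 44 in Il2, Il3, Il4 and Il21 limit what this depth can show.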

Other observations

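Values by library are given here for 3 more genes of the list of T cell ligands, chosen after their values were seen. Lif, a cytokine of the interleukin 6 family, had 254, 269 and 99 counts in AlloTem, 9, 34 and 132 in SynTem, 20, 15 and 18 in LPS and 4, 0 and 7 in DC only. AlloTem 3 and SynTem 3 overlapped, and the difference from SynTem was 1.49 ± 0.78 (log2, SE; edgeR, adjusted p = 0.581). Il10, which restrains inflammation and which DCs also make, had 86, 62 and 52 counts in AlloTem, 22, 6 and 0 in SynTem, 26, 8 and 7 in LPS and 2, 1 and 0 in DC only. Its AlloTem libraries stood above all others, with a difference from SynTem of 2.28 ± 0.99 (edgeR, adjusted p = 0.499). In CPM, 7.09% of all genes tested separated AlloTem so from SynTem, 5.52% from LPS and 9.35% from DC only. Like Csf2, Il10 would not have passed the filter without its AlloTem counts, so its p-value is a description that supports nothing. Fasl, the death ligand of cytotoxic T and NK cells, was high in AlloTem 1 alone of its group, with 357, 20 and 20 counts in AlloTem, 148, 72 and 105 in SynTem, 197, 1 and 1 in LPS and 33, 39 and 9 in DC only, so that AlloTem 2 and 3 lay below every SynTem library.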
